A study of Mus musculus with 18 samples.

Results

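The 37 genes encoded by the mitochondrial genome were examined in mouse liver with and without the liver-specific loss of Ftcd, an enzyme of histidine and folate metabolism. They were chosen as the rows of the deposited table whose gene name begins with mt-, which took 37 of 58126 genes. Of these, 13 encode proteins and are called mRNAs below, 2 encode rRNAs and 22 encode tRNAs. The table gives TPM, a length-normalised share of each library's transcripts, for 18 liver libraries in 5 groups. WT mice and mice with a liver-specific Ftcd knockout (LKO) were sampled untreated at the age of 12 months, with 3 libraries of each genotype. Other mice of both genotypes had received the liver carcinogen DEN (diethylnitrosamine) at 20 mg/kg into the peritoneum on postnatal day 14 and were sampled 12 months later. From these came 6 libraries of WT nontumour liver, 3 of LKO nontumour liver and 3 of LKO tumour. The labels name neither the promoter that drives the deletion nor the strain, and do not say whether nontumour and tumour libraries share mice, so p-values measure the spread between these libraries.

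Ftcd itself stood at 61.2 to 106 TPM in 6 of the 9 libraries labelled WT and at 1.77 to 2.50 TPM in the other 3, which are untreated WT replicate 3 and DEN WT replicates 1 and 2. The 9 libraries labelled LKO were at 0.10 to 3.16 TPM. Member medians of comparisons with WT are therefore given with and without those 3 libraries. Sex was inferred from expression: a library was called XX where Xist TPM exceeded the summed TPM of the Y-linked Ddx3y, Uty, Kdm5d and Eif2s3y. By this rule all 9 libraries labelled WT were XX, and 7 of the 9 labelled LKO were XY. In untreated liver genotype and sex therefore cannot be told apart. After DEN, only nontumour replicate 1 and tumour replicate 1 of the LKO libraries were XX, so genotype and sex largely go together there too. Summed hepatocyte markers lay between 35780 and 151485 TPM in every library, and those of Kupffer cells between 31.4 and 372 TPM. Counts cannot be recovered from TPM, so no counting error can be given for single values.

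The mitochondrial genome is a small circle that is transcribed from both strands into long precursors. These are cut, mostly at the tRNAs that lie between the other genes, into mRNAs, rRNAs and tRNAs. Its mRNAs encode core subunits of respiratory complexes I, III and IV and of the ATP synthase (complex V), while complex II and all other subunits come from the nucleus. Hepatocytes are rich in mitochondria, and liver RNA holds a large share of these transcripts.

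Pieces of mitochondrial DNA also lie in the nuclear genome. The sequences of 11 annotated nuclear pseudogenes matched a mitochondrial gene at 95% identity or more over at least 100 bases. Of these, 7 form a single stretch of 4663 bases on the minus strand of chromosome 1, chr1:24611535-24616197 in mm10. Their aligned bases run from position 6390 to 11042 of the mitochondrial genome, from within mt-Co1 to within mt-Nd4. In 5 of the 7 models every aligned base was identical to the mitochondrial gene, and the others differed at 1 base each. The sequences below, from the GENCODE M21 transcripts of mm10, show how alike the members and their copies are. A stretch of mt-Co2 at chrM:7313-7372 on the plus strand has the same letters as its copy Gm28661 at chr1:24615206-24615265 on the minus strand.
mt-Co2: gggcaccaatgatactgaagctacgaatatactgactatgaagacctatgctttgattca
Gm28661: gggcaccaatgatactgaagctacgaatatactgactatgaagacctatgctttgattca
For mt-Co1 and its copy Gm29216, 483 of the copy's 492 bases aligned. The capital marks the only mismatch among them, A1066T, counted from 1 at the first base of mt-Co1. The lines show chrM:6390-6423 on the plus strand and chr1:24616155-24616188 on the minus strand.
mt-Co1: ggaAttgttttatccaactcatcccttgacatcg
Gm29216: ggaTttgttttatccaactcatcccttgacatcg
For mt-Nd3 and Gm28438 the only mismatch is T3C, at the last base of the first codon. The lines show chrM:9459-9491 on the plus strand and chr1:24613087-24613119 on the minus strand.
mt-Nd3: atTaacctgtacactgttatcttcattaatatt
Gm28438: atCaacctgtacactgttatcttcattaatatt
A gap of 233 bases without a gene model lies between Gm28661 and Gm10925 and takes in most of mt-Atp8, whose last 43 bases lie inside Gm10925. Its 204 bases at chrM:7766-7969, plus strand, are printed with those 43 bases, which mt-Atp6 also shares, in capitals.
mt-Atp8: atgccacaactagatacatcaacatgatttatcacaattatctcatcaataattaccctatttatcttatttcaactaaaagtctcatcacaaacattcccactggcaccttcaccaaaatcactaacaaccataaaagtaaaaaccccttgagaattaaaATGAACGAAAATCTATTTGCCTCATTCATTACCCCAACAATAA

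The identical pairs divided their TPM very unevenly. mt-Atp6, a membrane subunit of the ATP synthase, was listed at 0 in all 18 libraries, while its copy Gm10925 held 2038 to 25637 TPM. For mt-Co2, a catalytic subunit of complex IV, the copy held a median of 99.2% of the pair's length-weighted TPM (95.6% to 99.6%). For mt-Co3 the copy's share was 89.9% (78.3% to 93.7%), for mt-Nd4l 81.8% (59.7% to 100%) and for mt-Nd4 62.4% (35.7% to 88.4%). Gm28439, the copy of mt-Nd4, covers only 876 of its 1378 bases. Its share is therefore not directly comparable with those of the nearly full-length copies. The deposited values of these 5 genes are thus uncertain, and reads of a member and of an identical copy cannot be told apart over the shared bases. A combined value was therefore also computed, in which the copy's TPM, scaled by its length over the member's length, was added to the member.

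The pairs with a mismatch behaved differently. Gm29216 aligns to only 483 of the 1545 bases of mt-Co1, so its share too is not directly comparable with those of nearly full-length copies. Gm29216 took a median of 0.0145% of the mt-Co1 pair, but its TPM was 1685 to 8766 in 5 libraries and 9.98 to 54.7 in the other 13. The 5 are untreated WT replicate 1 and DEN WT replicates 2, 3, 5 and 6, and they are the 5 libraries with the lowest mitochondrial share of TPM. Gm28438 took 0.506% to 59.2% of the mt-Nd3 pair, with a median of 2.80%. Of the more diverged copies on chromosome 2, Gm13340, which matches mt-Co1 with 37 mismatches, was at 107 to 1697 TPM and Gm13341 at 0.29 to 8.78 TPM. Gm13339 was listed at 0 throughout.

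**Figure D1:**
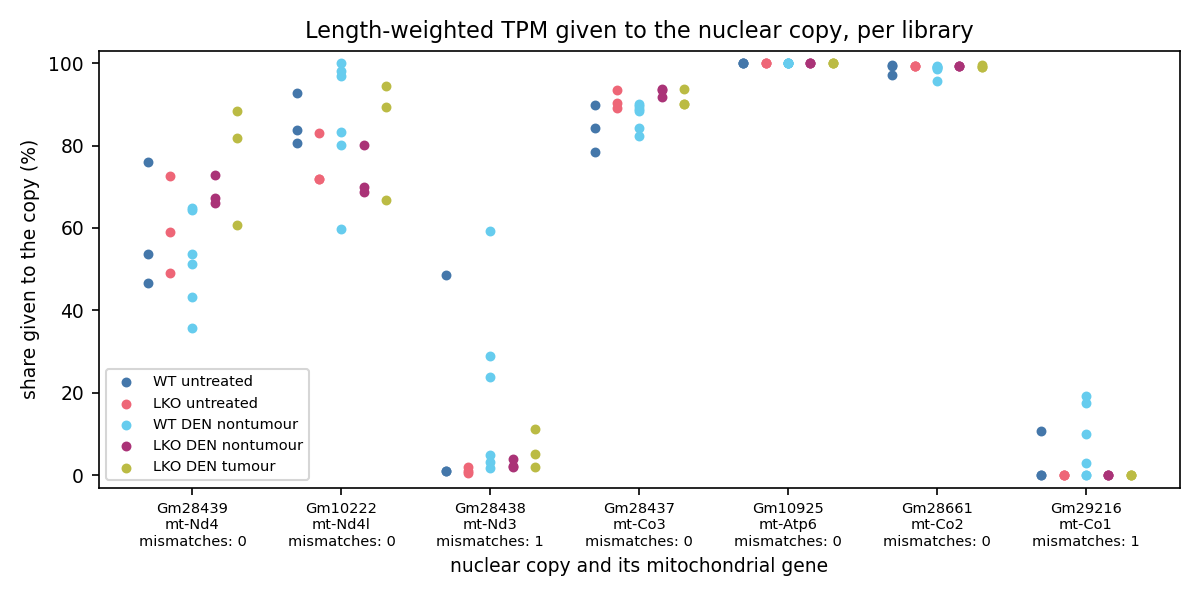
Share of the length-weighted TPM of each mitochondrial gene and its nuclear copy on chromosome 1 that the deposited table gives to the copy (percent, vertical axis), with 1 point per library coloured by group. Gm10925 and Gm28661 lie near 100% in all libraries, while Gm29216 is near 0 in 13 libraries and higher in 5 (up to 19.3%). Gm28439 and Gm29216 cover only part of their genes, so their shares are not directly comparable with the others.

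All 22 tRNAs were listed at 0 in all 18 libraries. Their models are 59 to 75 bases long, and of 813 other genes in that length range only 3 (0.369%) were above 0 in any library, against 36.6% of genes of 301 to 1000 bases. The zeros are therefore shared with other genes of that size and give no level for these tRNAs. The phenylalanine tRNA, the first gene of the circle at chrM:1-68 on the plus strand, shows the length concerned.
mt-Tf: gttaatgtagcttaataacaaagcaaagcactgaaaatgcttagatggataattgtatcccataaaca
With mt-Atp6 and the tRNAs at 0, 14 members were above 0 in at least 1 library, and all 14 passed the filter of 1 TPM in at least 3 libraries.

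The mitochondrial genes took between 4.24% and 38.8% of all TPM in a library. In untreated WT liver the share was 4.24%, 10.0% and 23.2%, and in untreated LKO liver 20.6%, 30.9% and 17.9%. In DEN WT nontumour liver the lowest, median and highest shares were 4.39%, 6.49% and 38.8%. DEN LKO nontumour liver had 36.9%, 19.2% and 17.8%, and DEN LKO tumour 31.4%, 16.4% and 10.5%. The highest library of each WT group was one of the 3 with low Ftcd, and the WT and LKO groups overlapped at each treatment because of them. Without the 3, the WT libraries lay at 4.24% and 10.0% untreated and at 4.39% to 9.82% after DEN, below every LKO library. The third library, DEN WT replicate 2, had low Ftcd and a share of 6.47%, among the other WT values. With the chromosome 1 copies added, the shares ran from 6.93% to 58.8%.

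**Figure D2:**
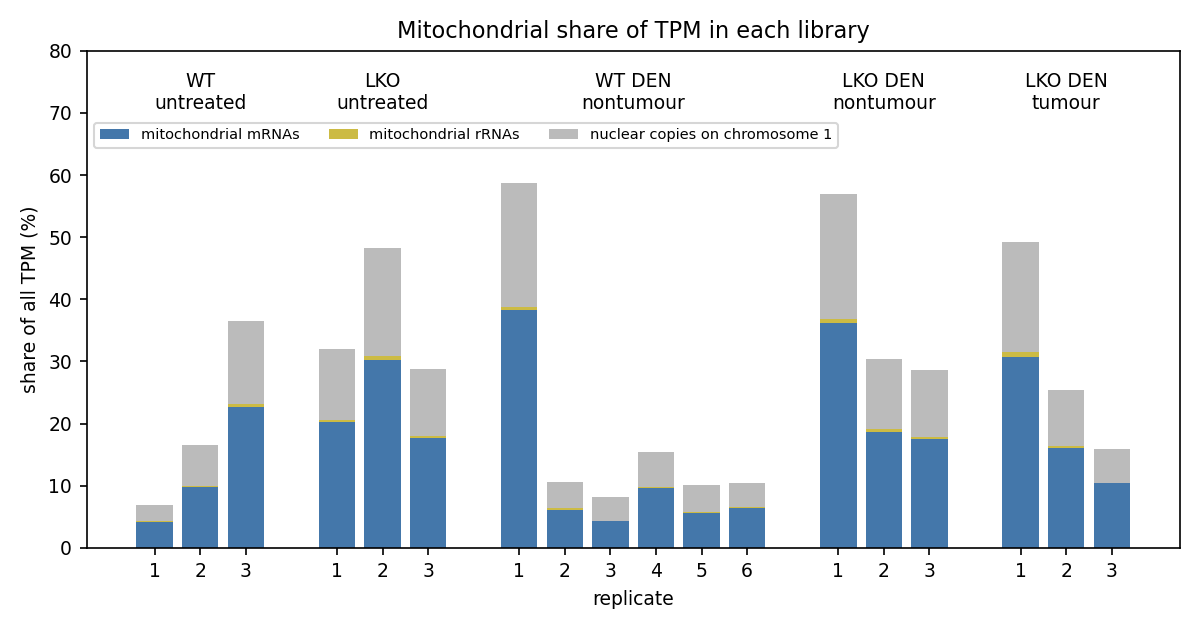
Share of all TPM in each library (percent, vertical axis) taken by mitochondrial mRNAs, mitochondrial rRNAs and the 7 nuclear copies on chromosome 1, stacked, with libraries grouped by genotype and treatment. The totals run from 6.93% in untreated WT replicate 1 to 58.8% in DEN WT replicate 1.

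Among the mRNAs, mt-Co1, the catalytic core of complex IV, was the most abundant in 15 of the 18 libraries as deposited and mt-Atp8, a small ATP synthase subunit, in the other 3. The level of mt-Co1 in untreated WT liver was 10687, 31578 and 90893 TPM, and in untreated LKO liver 69552, 107676 and 64796 TPM. After DEN the WT libraries ranged from 11436 to 130614 TPM with a median of 15643. LKO nontumour liver held 99885, 61683 and 60993 TPM, and LKO tumour 86940, 46195 and 37591 TPM. As with the share, untreated WT replicate 3 and DEN WT replicate 1 lay among the LKO libraries. Combined with the copies, mt-Co1 was the most abundant in 12 libraries, and mt-Co2 and mt-Atp8 in 3 each. The combined medians over the 18 libraries were 53598 TPM for mt-Co1, 38871 for mt-Co2, 29024 for mt-Atp8 and 25510 for mt-Co3. Next came mt-Cytb, the cytochrome b of complex III, at 18296 TPM, and the complex I subunits mt-Nd3, mt-Nd2 and mt-Nd1 at 16270, 15641 and 12412 TPM. mt-Atp6 and mt-Nd4 had combined medians of 10770 and 10737 TPM, mt-Nd4l of 5896, and mt-Nd6 and mt-Nd5 of 2763 and 2477 TPM. Every mRNA spanned at least a 6.98-fold range between its lowest and highest library, so neighbours in this order overlap widely. Each value is that of a gene model. mt-Atp8 shares 43 bases with mt-Atp6, and mt-Nd4l shares 7 with mt-Nd4. Within these pairs the levels need not belong to separate transcripts.

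Grouped by complex, the combined mRNAs of complex IV made up 34.4% to 53.9% of the mitochondrial mRNA TPM, those of complex I 23.6% to 32.8%, those of complex V 13.4% to 31.8% and mt-Cytb 6.13% to 9.49%. The highest complex V share, 31.8%, and the lowest complex IV share, 34.4%, were in the same library, DEN WT replicate 6, where mt-Atp8 at 27879 TPM exceeded mt-Co1 at 14218. The 204-base model of mt-Atp8 shares 43 bases with mt-Atp6, whose combined level in that library was 3488 TPM. The part of model length and overlap in these shares was not tested.

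**Figure D3:**
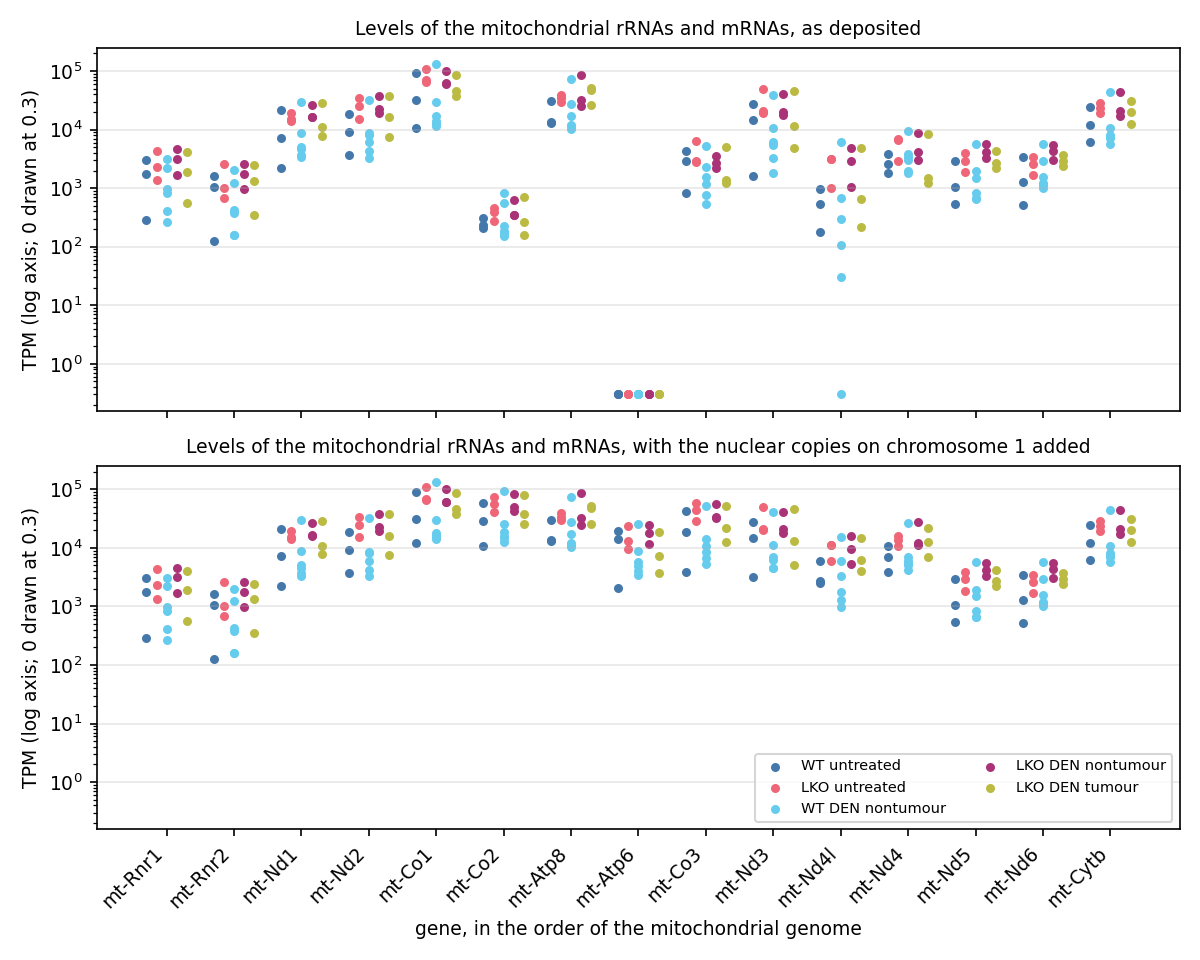
Level of each mitochondrial rRNA and mRNA in TPM (log axis, values of 0 drawn at 0.3) with 1 point per library, as deposited above and with the chromosome 1 copies added below. The 0 of mt-Atp6 and the low values of mt-Co2 as deposited rise to medians of 10770 and 38871 TPM once the copies are added.

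The members varied together across libraries. Over the 18 libraries, which share the constraint that all TPM sum to a fixed total, log2 levels correlated with the log2 sum of the mRNAs at Pearson r of 0.85 to 0.99 for 11 of the 14 members. The others as deposited were mt-Co2 at 0.60, mt-Nd4 at 0.69 and mt-Nd4l at 0.82. With the copies added mt-Co2, mt-Nd4 and mt-Nd4l reached 0.99, 0.97 and 0.91. The sum was of the deposited values and contains each mRNA's own level, so part of r is built in for the mRNAs. mt-Co1 alone made up 22.0% to 40.1% of that sum. The rRNAs mt-Rnr1 and mt-Rnr2, which lie outside it, were at 0.85 and 0.86. The copy Gm29216 ran the other way at -0.81. The nuclear genes with the most similar pattern, among 5579 with a mean of 5 TPM or more, were Ubn2 (0.94), Cdh18 (0.92) and Ube3a (0.91), and the most opposite were Ifitm2 (-0.96), Bst2 (-0.95) and Os9 (-0.95).

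The ribosomal RNAs made up a small part of the members' TPM. mt-Rnr1, the small-subunit rRNA, stood at 263 to 4601 TPM and mt-Rnr2, the large-subunit rRNA, at 125 to 2586 TPM, and their ratio was 1.41 to 2.53. Together they made up 0.647% to 5.37% of the members' TPM as deposited. Set against the mRNAs with the chromosome 1 copies added, they came to 0.405% to 3.41%. Whether the libraries selected poly(A) RNA or depleted rRNA is not given in the sources used here. These values therefore need not reflect rRNA levels in liver. The highest values, 5.37% and 3.41%, were both in DEN WT replicate 2. That library also held the signal recognition particle RNA Rn7s1 at 4976 TPM, against 47.8 to 1233 TPM elsewhere, and Lars2, a mitochondrial leucyl-tRNA synthetase, at 1595 TPM, against 33.2 to 582. The part of these in its rRNA value was not tested.

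mt-Nd6, a complex I subunit, is the only mRNA read from the opposite strand. Its level was 0.958% to 3.18% of the sum of the other mRNAs as deposited. The values were 1.24%, 1.35% and 1.51% in untreated WT liver and 1.29%, 1.14% and 0.958% in untreated LKO liver. After DEN the WT values ran from 1.52% to 3.14%, LKO nontumour liver had 1.21%, 1.67% and 3.18%, and tumour had 1.21%, 1.52% and 2.93%. The deposited sum leaves out the TPM given to the chromosome 1 copies. These held 33.8% to 46.8% of the TPM of members and copies together, and their part in these values was not removed. mt-Nd6 overlaps mt-Nd5 by 14 bases, and strand use in the counting is not given in the sources used here.

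In untreated liver the 14 members were all higher in LKO than in WT by 0.58 to 2.24 on the log2(TPM + 1) scale, with a median of 1.04, but none passed the test. Limma, fitted over all 13872 tested genes with Benjamini-Hochberg adjustment, called 0 of 14 at an adjusted p under 0.05, the smallest being 0.83, and 0 had an unadjusted p under 0.05. Of all genes, 0.433% were called, and their median difference was -0.33. Without the low-Ftcd libraries the member median was 1.75. mt-Nd2 differed by 1.44 ± 0.76 (SE, 3 against 3 libraries) and mt-Co1 by 1.33 ± 0.80. The mt-Nd2 difference was 0.84 without untreated WT replicate 1 and 2.00 without replicate 3, and that of mt-Co1 0.55 and 2.10. mt-Nd4l was the only member whose groups did not overlap, at 181, 533 and 967 TPM in WT and 3171, 3149 and 998 TPM in LKO. Of all tested genes, 11.4% did not overlap here. With Gm10222 added the mt-Nd4l groups overlapped, at 2539, 2738 and 5994 TPM in WT and 11316, 11176 and 5871 TPM in LKO.

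In DEN nontumour liver the 14 members were again higher in LKO, by 0.55 to 4.28 with a median of 1.61, and the median over all genes was -0.19. Limma called 0 of 14 (adjusted p of 0.34 or more) and 0.0577% of all genes, while 6 members had an unadjusted p under 0.05. The difference was 1.66 ± 0.70 for mt-Co1, 1.75 ± 0.66 for mt-Nd2, 1.66 ± 0.63 for mt-Nd5 and 1.28 ± 0.58 for mt-Cytb (SE, 3 against 6 libraries). Without the 3 low-Ftcd libraries labelled WT, the member median was 1.96 and 7 of 14 were called, all higher in LKO, against 8.35% of all genes. These were mt-Rnr2 (2.69), mt-Nd1 (1.99), mt-Nd2 (2.30), mt-Co1 (2.18), mt-Nd5 (1.93), mt-Cytb (1.74) and mt-Nd4l (5.99), with adjusted p of 0.022 to 0.047. The mt-Nd4l call is on deposited values, at 30.5, 672, 0 and 109 TPM in DEN WT replicates 3 to 6. This fit was not repeated with its copy Gm10222 added. With all libraries included, 0 of 14 members had groups without overlap here, against 4.06% of genes.

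The size of the mt-Nd4l difference depended on the split with its copy. As deposited mt-Nd4l in DEN WT liver was listed at 0 in replicate 5 and ran from 30.5 to 6099 TPM in the others, and LKO nontumour liver held 4925, 2931 and 1052 TPM. The difference of 4.28 ± 1.78 fell to 1.66 ± 0.71 once Gm10222 was added. Likewise mt-Nd4 moved from 0.55 to 1.13 and mt-Co2 from 0.58 to 1.30. Across members the range of differences narrowed from 3.74 to 0.72 log2 units.

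**Figure D4:**
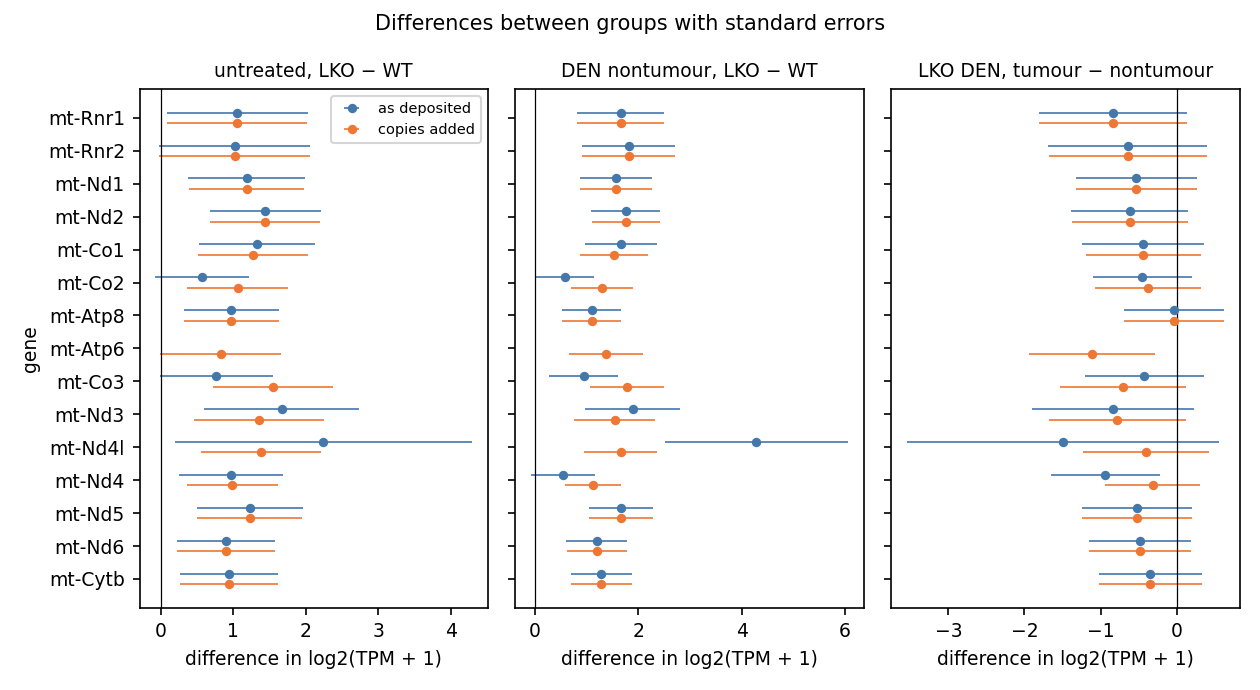
Difference in mean log2(TPM + 1) between groups for each mitochondrial gene (horizontal axis), with standard errors from the limma fit, as deposited and with the chromosome 1 copies added. In untreated and DEN nontumour liver all differences lie above 0 and in tumour against nontumour all lie below 0, with wide errors, and mt-Nd4l in DEN nontumour liver moves from 4.28 to 1.66.

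Within LKO mice the 14 members were lower in tumour than in nontumour liver, by 0.04 to 1.49 log2 units with a median of -0.52 against 0.23 over all genes. Limma called 0 of 14 and 0.0% of all genes, with adjusted p of 0.94 or more and 0 members under an unadjusted p of 0.05. The groups of all 14 members overlapped, while 3.83% of genes had none. For mt-Atp8 the difference was -0.04 and for mt-Nd4l -1.49 ± 2.05. Between LKO tumour and DEN WT nontumour liver, which reuses the same libraries, 13 of 14 members were higher in tumour, with a median of 1.04, or 1.43 without the low-Ftcd libraries. Limma called 0 of 14 and 0.497% of all genes, the smallest adjusted p being 0.56. Again 0 of 14 had groups without overlap, against 3.19% of genes. mt-Nd4 was the exception at -0.39, and was 0.81 with its copy added.

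Differences between DEN and untreated liver were small beside the spread of the libraries. In WT mice DEN against untreated liver gave a median of -0.22 (-0.18 without the low-Ftcd libraries) and 0 of 14 called (0.0% of all genes), and in LKO mice a median of 0.21 and 0 of 14 called (0.0649%). In both, 0 of 14 members had groups without overlap, against 0.67% and 12.3% of all genes. Neither direction held under every alternative, as the WT median was 0.19 with the replicate block and the LKO median -0.25 with a sex term. Under that block DEN WT replicates 4 to 6 have no same-number untreated library and do not enter the WT difference. The genotype effect after DEN minus that in untreated liver had a median of 0.32, or 0.08 without the low-Ftcd libraries, and 0 of 14 members were called (0.0% of all genes).

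To compare the members with each other, the mitochondrial genes were also scaled so that their mRNAs summed to the same total in each library. On this scale limma called 0 of 14 members in all 7 comparisons. All genes were called at 0.519% between untreated genotypes, 0.0505% between DEN nontumour genotypes, 0.771% between LKO tumour and DEN WT, and 0.0937% between DEN and untreated LKO nontumour liver. In the other 3 comparisons 0.0% were called. mt-Nd4 was lower in LKO tumour than in DEN WT by 1.43 ± 0.46 log2 units (adjusted p = 0.149), and by 0.16 with its copy Gm28439 added. As deposited, mt-Nd4 was at 8473, 1479 and 1249 TPM in tumour, with replicate 1 above the other two. Without that replicate the adjusted p for mt-Nd4 was 0.034 on the deposited values, a fit not repeated with Gm28439 added.

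Nuclear genes of the same complexes were not called and had medians below that of all genes in DEN nontumour liver. Of the 36 nuclear complex I subunits tested, 9 of complex III, 12 of complex IV and 16 of complex V, none was called in any of the 7 comparisons, in which at most 0.497% of all genes were called. In DEN nontumour liver the median LKO minus WT difference was -0.41 for complex I, -0.995 for complex III, -0.96 for complex IV and -0.93 for complex V, against -0.19 for all genes. The wholly nuclear complex II had a median of -1.14 over its 4 subunits. With the nuclear genes scaled to their own total, the medians were -0.19 for complex I, -0.78 for complex III and -0.74 for complex IV. They were -0.71 for complex V and -0.92 for complex II, against -0.05 for all genes. That total still held the chromosome 1 copies, at 10.7% to 20.1% of TPM in DEN LKO nontumour liver and 3.87% to 20.0% in DEN WT. The mitochondrial share was thus not fully removed, and the copies' part in these medians was not tested.

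The genes that make and maintain mitochondrial RNA gave no call either. Polrmt, the mitochondrial RNA polymerase, was at 14.4 to 39.6 TPM. Tfam, which packages and helps transcribe mitochondrial DNA, was at 1.43 to 25.3 TPM, with its 4 highest values in untreated WT replicate 1 and DEN WT replicates 3, 5 and 6. Lrpprc, which stabilises mitochondrial mRNAs, was at 24.0 to 57.5 TPM. Ppargc1a, a coactivator of mitochondrial biogenesis, was at 0.20 to 11.1 TPM.

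Finally, 3 of the 13 reading frames end in an incomplete stop codon, mt-Nd4, mt-Co3 and mt-Cytb, which poly(A) addition completes to TAA. Their last 24 bases are printed with the lone final T in capitals, at chrM:11521-11544, chrM:9367-9390 and chrM:15265-15288, all on the plus strand.
mt-Nd4: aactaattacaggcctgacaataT
mt-Co3: tctccatttattgatgaggatctT
mt-Cytb: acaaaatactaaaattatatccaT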

How the data were processed

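The authors deposited 1 gene table of TPM values for the 18 libraries. TRIzol extraction and a TruSeq RNA library kit are stated per the labels' protocols. The submitters' processing notes name mm10, RSEM, HISAT and fastp. How each was run is not given in the sources used here. TPM divides by gene length and library total, so depth cannot be recovered and shares move against each other. The 13872 genes that reached 1 TPM in 3 or more libraries were tested as log2(TPM + 1) with limma 3.58.1 in R 4.3.3, over all 18 libraries with 5 group means and an intensity trend, 2-sided, adjusted by Benjamini-Hochberg over all tested genes and called under 0.05. Nuclear copies were found with blastn 2.17.0 on GENCODE M21 transcripts. Tables and figures used Python 3.11.15, numpy 2.4.6, pandas 2.3.3 and matplotlib 3.10.9. The test was also run on simulated data. All 13 mRNAs and both rRNAs are named, tRNAs only where at 1 TPM or more in 3 libraries, except mt-Tf, chosen as an example after its values were seen, and Polrmt, Tfam, Lrpprc, Lars2, Ppargc1a and Ftcd whatever their result. Members, lists and tests were chosen with earlier results of these data known. Alternatives tried were the pseudocount, filter, scaling, variance model, sex term, replicate block, leaving out each library or the 3 low-Ftcd libraries, and, chosen after seeing the data, adding the chromosome 1 copies.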

Additional observations from a re-analysis of the deposited data

Results flagged for a closer look

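In the 6 DEN WT nontumour libraries, the only group of 4 to 10 samples, 30 of 43 quantities had 1 library farther from the rest than Dixon's 95% criterion allows. Chance flags about 1 in 20, and the quantities are not independent of each other, since 24 of the 30 concern DEN WT replicate 1, one of the 3 libraries labelled WT with low Ftcd.

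DEN WT replicate 1 had the highest level in its group for all 14 members above 0, and 10 of them passed the criterion. Its levels were 30178 TPM for mt-Nd1, 31948 for mt-Nd2, 130614 for mt-Co1, 73189 for mt-Atp8 and 5342 for mt-Co3. They were 39437 TPM for mt-Nd3, 9368 for mt-Nd4, 5630 for mt-Nd5, 44744 for mt-Cytb and 6099 for mt-Nd4l. The copies stood out too, with Gm28439 at 26470 TPM, Gm28437 at 46001, Gm10925 at 25637 and Gm28661 at 91667. Combined with the copies, mt-Co1 was at 130629 TPM, mt-Co2 at 92098, mt-Atp6 at 25524, mt-Co3 at 51284, mt-Nd3 at 40158, mt-Nd4 at 26196 and mt-Nd4l at 15153. The members took 38.8% of TPM in this library, the chromosome 1 copies 20.0% and both together 58.8%.

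DEN WT replicate 2 stood apart for the mitochondrial rRNA share of the members (5.37%), Rn7s1 (4976 TPM), the small nuclear RNA Rn7sk (568 TPM) and Lars2 (1595 TPM). DEN WT replicate 6 had the lowest complex IV share of the combined mRNAs, 34.4%, and the highest complex V share, 31.8%.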

How the results depend on the processing

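The count of members called stayed at 0 of 14 under 251 of 253 combinations of comparison and alternative. It became 7 between DEN nontumour genotypes without the 3 low-Ftcd libraries labelled WT. That fit was on the deposited values, with mt-Nd4l among the 7, and was not repeated with the copies added. On the composition scale the count ranged from 0 to 1 between LKO tumour and DEN WT when each library was left out. The 1 was mt-Nd4 (-1.89) without LKO tumour replicate 1. That call was on the deposited mt-Nd4 and was not refitted with its copy added. The share of all genes called in that fit is not given here, so the call stands without its background. The labels do not say whether replicate numbers pair libraries, and the data do not settle it. In no comparison were all 3 same-number correlations of deviations from the group means above 0.1, and they ran from -0.63 to 0.61. With the replicate block, fitted on the compared groups alone, 0 members were called in every comparison. The member median between DEN nontumour genotypes was then 1.15. DEN WT replicates 4 to 6 have no same-number LKO library, so under the block they do not enter that difference. The WT side is then replicates 1 to 3, of which 1 and 2 are low in Ftcd. Adding the chromosome 1 copies, chosen after seeing the data, moved the median mitochondrial share to 32.1% in untreated LKO and to 30.4% in DEN LKO nontumour liver. In the 3 LKO against WT comparisons and tumour against nontumour, 16 of the members' log2 differences under an alternative changed sign, none of them a called value. With quantile normalization the tumour minus nontumour difference was 0.38 for mt-Atp8 and 0.0565 for mt-Cytb. For mt-Nd4 the LKO tumour minus DEN WT difference was 0.0311 without the low-Ftcd libraries, 0.93 with a sex term and 0.81 with the copies added. Leaving out 1 library at a time, tumour minus nontumour ranged from -0.40 to 0.50 for mt-Atp8, -0.68 to 0.0554 for mt-Cytb, -1.05 to 0.0443 for mt-Co2 and -1.26 to 0.15 for mt-Rnr2. Tumour minus DEN WT ranged from -0.47 to 0.63 for mt-Co2, -0.14 to 0.89 for mt-Co3 and -1.27 to 0.11 for mt-Nd4. Untreated LKO minus WT ranged from -0.10 to 1.75 for mt-Rnr2. The cause was not tested. Median-ratio scaling moved the median of all genes from -0.33 to 0.01 between untreated genotypes and that of the members from 1.04 to 1.55. A sex term moved the member medians to 2.28 untreated and 2.18 after DEN. It rests on the 2 XX libraries labelled LKO, which had the highest mitochondrial share of their groups.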
